A study of Mus musculus with 4 samples.

Results

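The genes described here are the mitochondrially encoded ones, taken as all rows of the authors' comparison of genotypes whose symbol starts with mt-. They were 16 of the 38697 genes listed: 13 protein-coding, 2 rRNA and 1 tRNA gene. The RNA came from ILC2s (group 2 innate lymphoid cells), lymphocytes without antigen receptors that reside in tissues and secrete type 2 cytokines. They were isolated from lungs of bleomycin-treated C57BL/6 mice, bleomycin being an agent that injures the lung. Both groups carried 1 R5 allele (R5/+), an Il5-locus reporter that also drives Cre recombinase, so Cre was present in WT and KO alike. The WT group was R5/+ and the KO group R5/+ Nrp1f/f, in which deletion of Nrp1, the gene for the co-receptor neuropilin-1, is limited to cells that have expressed Il5. Each group had 2 samples, and each sample pooled 3 to 4 mice. The labels state neither the age of the mice nor the time after bleomycin. The values are the authors' own: baseMean, which averages a gene's normalized counts across libraries, and a log2 fold change, given here as KO over WT, with a standard error (SE), p-value and adjusted p-value. Values per library were not analysed here, so no level has a spread between samples.

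In the authors' deposited table the ILC2 markers Gata3, Rora and Id2 stood at a baseMean of 39152, 41644 and 43668, and the 11 ILC2 markers ranged from 187 to 43668. Markers of other cells were present at uneven levels. The baseMean of 3 macrophage markers ran from 13.8 (Marco) to 8981 (Lyz2), of 3 epithelial ones from 266 (Epcam) to 6032 (Sftpc), of 3 fibroblast ones from 152 to 1504, of 3 endothelial ones from 158 to 1275 and of 3 red cell ones from 222 to 2899. The 3 B cell markers ran from 19.5 to 38.5, the 4 T cell markers from 3.84 to 963, and 3 markers of heart and muscle, tissues rich in mitochondria, from 17.7 to 27.3. All 11 ILC2 markers had a log2 fold change below 0 (-0.51 to -0.07), or a median of -0.08 after the centring described below. Most of them had a baseMean of 1000 or more, a range where 92.9% of all genes tested were below 0. All 21 markers of cells other than ILC2s and T cells had a log2 fold change above 0 (0.11 to 2.66), with a median of 0.78. Of all genes tested, 46.0% were below 0. Of the 36 markers, all but Cd8a (baseMean 3.84) had an adjusted p. Cd3g, part of the T cell receptor complex, was the 1 under 0.05, where 0.552% of all 19193 genes tested were. It stood at -0.96 ± 0.24 (SE; adjusted p = 0.0292) by the authors' deposited table. The part of other cells in the mitochondrial values was not tested. Nrp1 stood at a log2 fold change of -1.18 ± 0.21 (SE; adjusted p = 1.27e-04) by the authors' deposited table.

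The mitochondrial genome is a small circle that encodes core subunits of respiratory chain complexes I, III and IV and of the ATP synthase (complex V), with the rRNAs and tRNAs needed to translate them inside the organelle. Both strands are transcribed into long polycistronic precursors. Enzymes cut these at the tRNAs that punctuate the genes, and most mRNAs then receive a short poly(A) tail, which in some completes the stop codon. All other subunits of these complexes, and all proteins that copy, transcribe and translate the mitochondrial genome, are encoded in the nucleus. Fragments of mitochondrial DNA have also been copied into nuclear chromosomes, where they are annotated as pseudogenes.

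Together the 16 genes held 1.32% of the summed baseMean of all genes. With the genotype means that baseMean and the fold change imply when both genotypes weigh equally, the share was 1.30% in WT and 1.34% in KO, values with no error of their own. Protein-coding genes made up 74.3% of the mitochondrial sum, rRNA genes 25.7% and the tRNA gene 0.0608%. By complex, the 7 complex I genes held 37.0%, the complex III gene mt-Cytb 16.2% and the 2 complex V genes 0.120%, while mt-Co1 of complex IV alone held 20.8%. The cDNA kit used primes from poly(A), so RNAs without a tail, mature tRNAs among them, are captured less well. Levels across the 3 classes, and between genes of a class, carry that limit, and tails were not measured here. Of 22 tRNA genes annotated on the chromosome in GENCODE M21, the table listed mt-Tp, and the other 21 were not analysed here.

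Levels per length fell into separate ranges along the genome. The highest baseMean per kb were those of mt-Nd1, a membrane subunit of complex I (29752), mt-Rnr2, the large-subunit rRNA (25761), mt-Cytb, the haem-binding core of complex III (24227), and mt-Co1, the catalytic subunit of complex IV (23063). On this scale they ranked 9, 14, 17 and 18 among the 38388 genes with an annotated length. The complex I subunits mt-Nd2, mt-Nd4 and mt-Nd5 followed with a baseMean per kb of 11925, 8381 and 5184. The small-subunit rRNA mt-Rnr1 stood at 3436 per kb, and mt-Rnr2 was 7.50 times higher per kb although both rRNAs are cut from the same precursor. mt-Nd6, a complex I subunit and the only protein-coding gene annotated on the minus strand, stood at 2952 per kb, and mt-Nd5, which overlaps it by 14 bases on the other strand, was 1.76 times higher. The libraries are not described as marking strand, so reads in that overlap cannot be assigned.

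The other 6 protein-coding genes stood far lower, and they are neighbours. From mt-Co2 through mt-Atp8, mt-Atp6, mt-Co3 and mt-Nd3 to mt-Nd4l, baseMean per kb was 192, 34.2, 292, 255, 192 and 13.4. These genes encode 2 subunits of complex IV, both mitochondrially encoded subunits of complex V and 2 small subunits of complex I. Their median was 192 per kb against 11925 for the 7 other protein-coding genes, a ratio of 62.2. The lowest of the 7 (mt-Nd6) was 10.1 times the highest of the 6 (mt-Atp6). The 6 were grouped after these levels were seen, so a separation follows from the choice, and the ratios only describe its size. At the edges of the stretch, mt-Co1 was 120 times higher per kb than its neighbour mt-Co2, and mt-Nd4 was 626 times higher than mt-Nd4l. Although mt-Nd4l and mt-Nd4 are known to share 1 bicistronic mRNA, as mt-Atp8 and mt-Atp6 do, their counted levels lay this far apart.

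**Figure D1:**
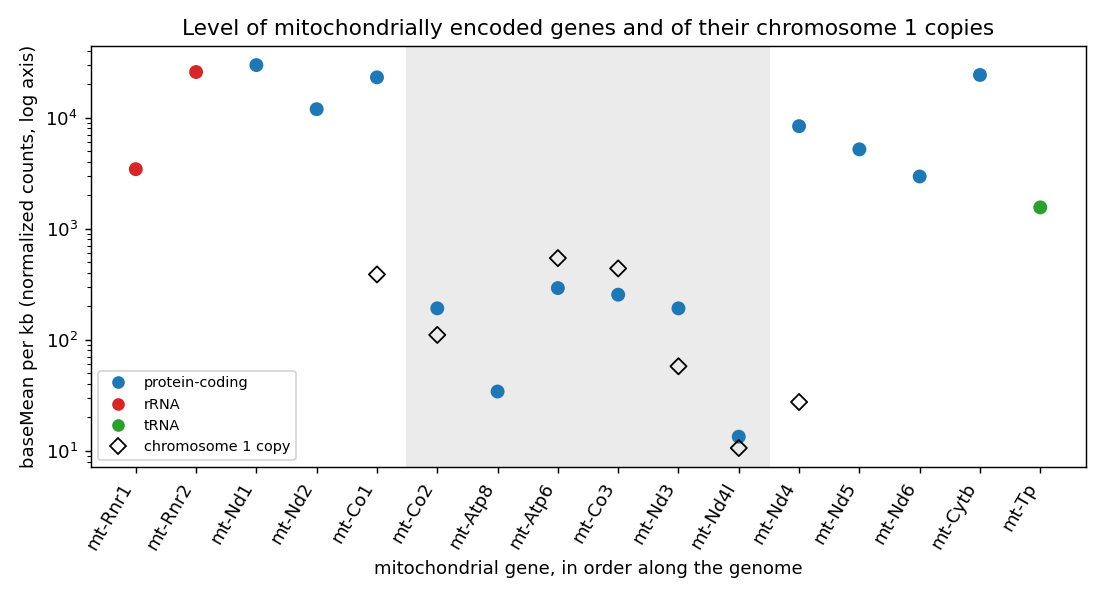
Points give baseMean per kb (normalized counts, log axis) of the 16 mitochondrially encoded genes in genome order, coloured by class; open diamonds give the same for the annotated chromosome 1 copy of a gene, and the grey band covers mt-Co2 to mt-Nd4l. The 6 genes in the band lie between 13.4 and 292, below all 7 other protein-coding genes, and the copies of mt-Atp6 and mt-Co3 lie above the genes themselves.

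The low stretch coincides with a nuclear copy annotated on chromosome 1 (chr1:24611535-24616197, GRCm38, the assembly behind mm10). Its 7 annotated unprocessed pseudogenes align to mitochondrial bases 6390 to 11042, from within mt-Co1 into mt-Nd4, and 5 of the 7 have 0 mismatches. Gm28661 matches 681 of the 684 bases of mt-Co2, Gm10925 matches 678 of the 681 of mt-Atp6, Gm28437 matches 783 of the 784 of mt-Co3 and Gm10222 matches 294 of the 297 of mt-Nd4l. Gm28438 differs from mt-Nd3 by 1 substitution over 345 bases, T3C, counted from the first base of mt-Nd3. Spacing between pieces was equal on both chromosomes in 5 of 6 gaps. In 1 of these, the 233 bases between the copies of mt-Co2 and mt-Atp6, where most of mt-Atp8 would lie, no pseudogene is annotated.

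The start of mt-Nd3 and of its copy are shown because this is the 1 difference found over the 5 copies that span a whole gene but for its last bases. Sequences are from the GENCODE M21 transcripts, 5′ to 3′ as transcribed, and the capital marks the base that differs (mt-Nd3 chrM:9459-9491, plus strand; Gm28438 chr1:24613087-24613119, minus strand).
mt-Nd3: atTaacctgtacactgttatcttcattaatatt
Gm28438: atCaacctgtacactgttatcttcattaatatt
The edges of the aligned copy are shown because the genes at both edges, mt-Co1 and mt-Nd4, had high levels. Capitals mark bases inside the aligned copy (mt-Co1 chrM:6360-6419 and mt-Nd4 chrM:11013-11072, plus strand). Outside it lie 1062 of the 1545 bases of mt-Co1 and 502 of the 1378 bases of mt-Nd4.
mt-Co1: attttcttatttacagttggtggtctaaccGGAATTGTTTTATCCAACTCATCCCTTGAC
mt-Nd4: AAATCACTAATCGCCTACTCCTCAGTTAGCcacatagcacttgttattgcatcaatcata

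Each gene was also read in windows of 100 bases, and each window was looked up in all annotated nuclear transcripts on both strands. An exact match was found for 99.5% of the windows of mt-Co2, 99.5% of mt-Atp6, 99.9% of mt-Co3, 97.6% of mt-Nd3 and 98.5% of mt-Nd4l. The share was 60.8% for mt-Nd4, 30.8% for mt-Co1 and 3.19% for mt-Nd2, and 0% for mt-Nd1, mt-Nd5, mt-Nd6, mt-Cytb, mt-Atp8 and both rRNA genes. All 5 genes with at least 90% of windows shared stood at or below 292 per kb, while the 3 with a smaller share above 0 had a median of 11925 per kb. The sources used here give neither read length nor the handling of reads that fit several places, and the part of shared sequence in these levels was not tested. The copies themselves had counts: baseMean was 368 for Gm10925 against 199 for mt-Atp6, and 344 for Gm28437 against 200 for mt-Co3. For Gm28661 and mt-Co2 it was 75.2 and 131, and for Gm28438 and mt-Nd3 it was 19.9 and 66.7. For Gm10222 and mt-Nd4l it was 3.11 and 3.98. Gene and copy summed gave 833 per kb for mt-Atp6, 693 for mt-Co3 and 302 for mt-Co2. The sums were lower for mt-Nd3, at 249 per kb, and for mt-Nd4l, at 23.9, where mt-Nd6 stood at 2952. Any reads left out for fitting both places would be in neither count, so the sums cannot show how many were lost. The low values are therefore given as counted levels, and whether they measure the abundance of these mRNAs was not tested.

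**Figure D2:**
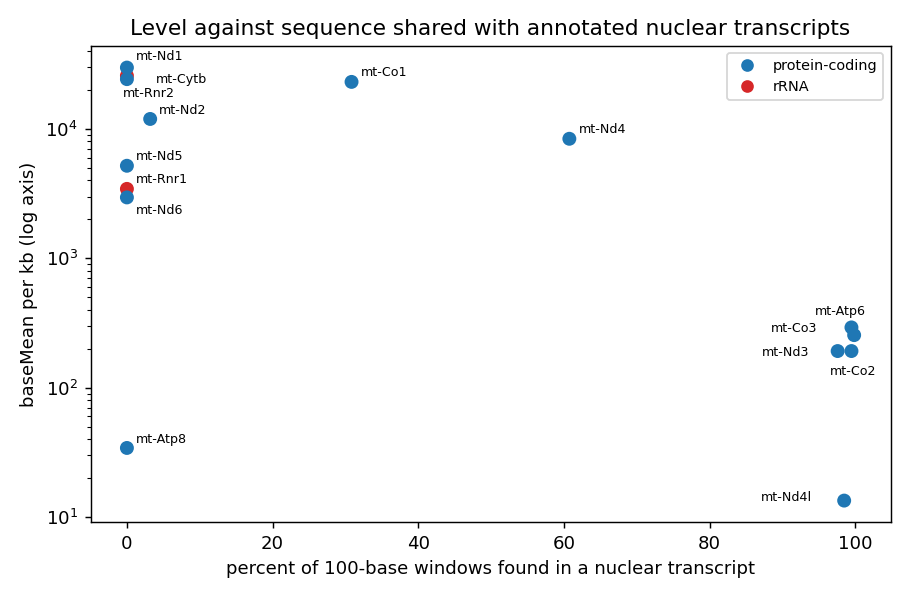
The horizontal axis gives the percent of a gene's 100-base windows found exactly in an annotated nuclear transcript, and the vertical axis baseMean per kb on a log scale, for 15 genes (mt-Tp is shorter than a window). The 5 genes at 97.6% or more lie at 292 or below, and mt-Atp8 lies low at 0%. Most of the place of mt-Atp8 in the chromosome 1 copy has no annotated transcript. The 43 bases it shares with mt-Atp6 are shorter than a window.

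The comparison of genotypes asks whether deleting Nrp1 alters these transcripts, and no mitochondrially encoded gene passed its test. The authors' deposited table gives 15 of them an adjusted p, and it was under 0.05 for 0 of the 15 in either direction, where 0.552% of the 19193 genes tested passed in either direction. At an unadjusted p under 0.05, 1 of the 15 was lower and 0 were higher, where 3.95% of all genes tested were lower and 9.62% higher. The gene mt-Nd4l, at a baseMean of 3.98, has no adjusted p. Fold changes of the 9 members whose baseMean was 1000 or more had an SE of 0.13 to 0.24 on the log2 scale, and over these 9 the 95% intervals reached from 0.573-fold (mt-Co1) to 1.61-fold (mt-Nd6). By SE, the most precise were mt-Rnr2 (interval 0.833-fold to 1.19-fold), mt-Cytb (0.711 to 1.02) and mt-Nd4 (0.816 to 1.19), and the interval of mt-Cytb lay mostly below 1. An adjusted p above the threshold does not show that the genotypes were alike, and these intervals give the size of change the data leave possible.

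The rRNAs form the catalytic and decoding cores of the mitochondrial ribosome. In the authors' deposited table mt-Rnr1 (baseMean 3281) stood at a log2 fold change of 0.21 ± 0.17 (SE; adjusted p = 0.614). The value of mt-Rnr2 (baseMean 40754) was -0.01 ± 0.13 (adjusted p = 0.990) by the authors' deposited table, with an interval of -0.26 to 0.25. Neither rRNA passed.

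Among complex I subunits, which carry electrons from NADH to ubiquinone, log2 values of the 6 tested genes ran from -0.14 for mt-Nd2 to 0.21 for mt-Nd6, with a median of 0.02. The authors' deposited table gave mt-Nd1 (baseMean 28473) a log2 of 0.03 ± 0.15 (SE), mt-Nd4 (11549) -0.02 ± 0.14 and mt-Nd5 (9456) 0.10 ± 0.20. It gave mt-Nd2 (12378) -0.14 ± 0.15 and mt-Nd6 (1532) 0.21 ± 0.24, and the adjusted p of these 5 genes ranged from 0.720 to 0.963. Errors were wide for the low genes, with mt-Nd3 (baseMean 66.7) at 0.00 ± 0.62 and mt-Nd4l at 1.18 ± 2.42 in the authors' deposited table.

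The 2 smallest p-values belonged to the core subunits of complexes IV and III. mt-Co1 (baseMean 35633), which holds the oxygen-reducing centre of cytochrome c oxidase, stood at a log2 fold change of -0.44 ± 0.18 (SE), an interval of -0.80 to -0.08, and the authors' deposited table gave an unadjusted p of 0.0163 and an adjusted p of 0.230. That is 0.736-fold, and it did not pass. Centred on abundant genes it stood at -0.19. The nuclear copies that share part of its sequence, Gm29216 and Gm13340, stood at -0.73 ± 0.43 and -0.70 ± 0.61 (adjusted p = 0.451 and 0.654) by the authors' deposited table, at a baseMean of 191 and 87.2. mt-Cytb (baseMean 27715) stood at -0.23 ± 0.13 (adjusted p = 0.442) by the authors' deposited table, or 0.02 when centred. The other complex IV genes, mt-Co2 and mt-Co3, stood at -0.04 ± 0.46 and -0.11 ± 0.38 (adjusted p = 0.981 and 0.936) by the authors' deposited table, so their intervals hold both the value of mt-Co1 and 0.

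The complex V subunits are mt-Atp6, part of the proton channel, and mt-Atp8, a small protein that supports its assembly. They share 43 bases in different frames, shown because reads within them fit both genes. Capitals mark the shared bases in mt-Atp8 (chrM:7766-7969, plus strand, GRCm38).
mt-Atp8: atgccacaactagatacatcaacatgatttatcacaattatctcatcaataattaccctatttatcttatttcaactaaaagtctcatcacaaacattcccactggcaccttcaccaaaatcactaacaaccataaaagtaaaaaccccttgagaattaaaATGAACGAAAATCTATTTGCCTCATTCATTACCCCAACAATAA
The authors' deposited table gave mt-Atp6 (baseMean 199) a log2 fold change of -0.21 ± 0.38 (SE; adjusted p = 0.855) and mt-Atp8 (6.97) -0.09 ± 1.82 (adjusted p = 0.991). The 95% interval of mt-Atp6 reached from 0.515-fold to 1.45-fold, and that of mt-Atp8, on the log2 scale, from -3.66 to 3.49. The chromosome 1 copies of mt-Atp6 and of its neighbour mt-Co3 did not pass either, with Gm10925, the copy of mt-Atp6, at -0.37 ± 0.38 (adjusted p = 0.709) and Gm28437, the copy of mt-Co3, at 0.31 ± 0.37 (0.768) in the authors' deposited table.

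The tRNA gene mt-Tp encodes the proline tRNA on the minus strand beside the control region (chrM:15356-15422, GRCm38). Its sequence is shown, 5′ to 3′ as transcribed, because it is the only listed member of its class, and capitals mark the anticodon.
mt-Tp: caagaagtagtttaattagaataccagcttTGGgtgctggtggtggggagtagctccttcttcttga
It had a baseMean of 104, or 1556 per kb, and a log2 fold change of -0.29 ± 0.55 (SE; adjusted p = 0.863) by the authors' deposited table. A gene of 67 bases can be shorter than a sequenced fragment, so its value per kb depends on how fragments that extend past it were counted, which the sources used here do not give. With 149 bases added to each length it was 483 per kb.

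**Figure D3:**
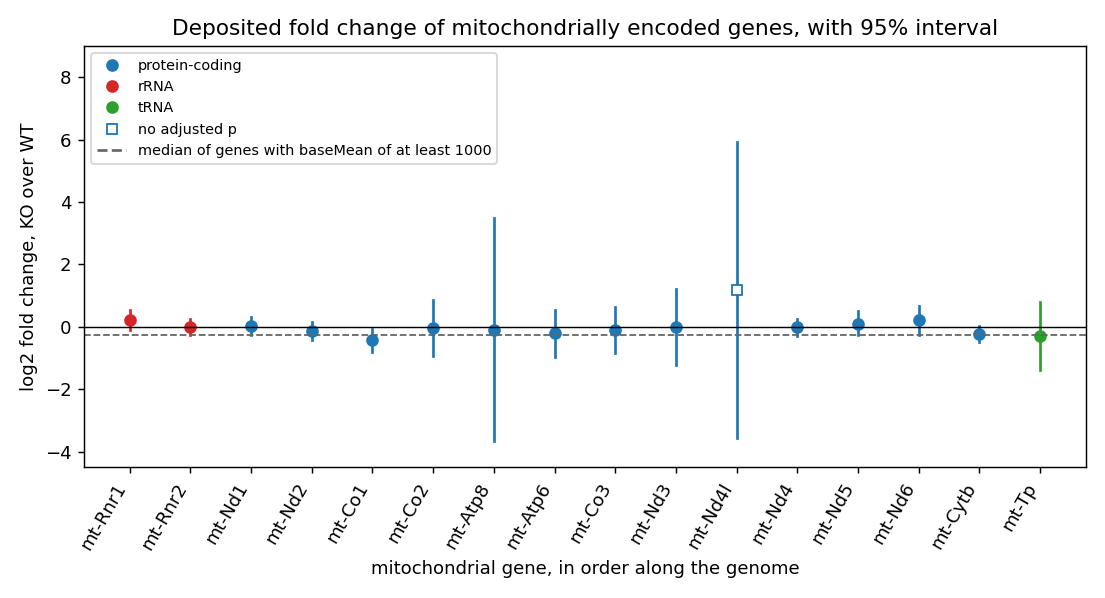
Points give the deposited log2 fold change, KO over WT, of each gene in genome order, and bars its 95% interval (from the deposited SE); the open square has no adjusted p and the dashed line is the median of genes whose baseMean is 1000 or more (-0.25). All intervals but that of mt-Co1 (-0.80 to -0.08) include 0, and those of mt-Atp8 and mt-Nd4l are the widest.

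Set beside each other by class, the median log2 fold change was -0.07 over 12 protein-coding genes, 0.10 over the 2 rRNA genes and -0.29 for the tRNA gene, against 0.08 over all genes tested. On the log2 scale shifted by 0.25, which sets the median of abundant genes to 0, these medians were 0.19, 0.36 and -0.04, so the protein-coding median changed sign. Members are not replicates and their errors are shared through the same libraries, so the differences between classes were not tested. The shift matters for these genes because fold changes varied with abundance over the whole table. Of 6745 tested genes with a baseMean between 100 and 1000, 69.8% had a log2 value below 0, with a median of -0.15. Of 2480 at 1000 or more, 92.9% were below 0, with a median of -0.25. Of the 9 mitochondrially encoded genes in that range 5 were below 0, with a median of -0.01, and after centring mt-Co1 alone was below 0. No centred value passed: the smallest adjusted p was 0.136, that of mt-Rnr1 at 0.47, and 1.18% of all genes tested passed on that scale.

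**Figure D4:**
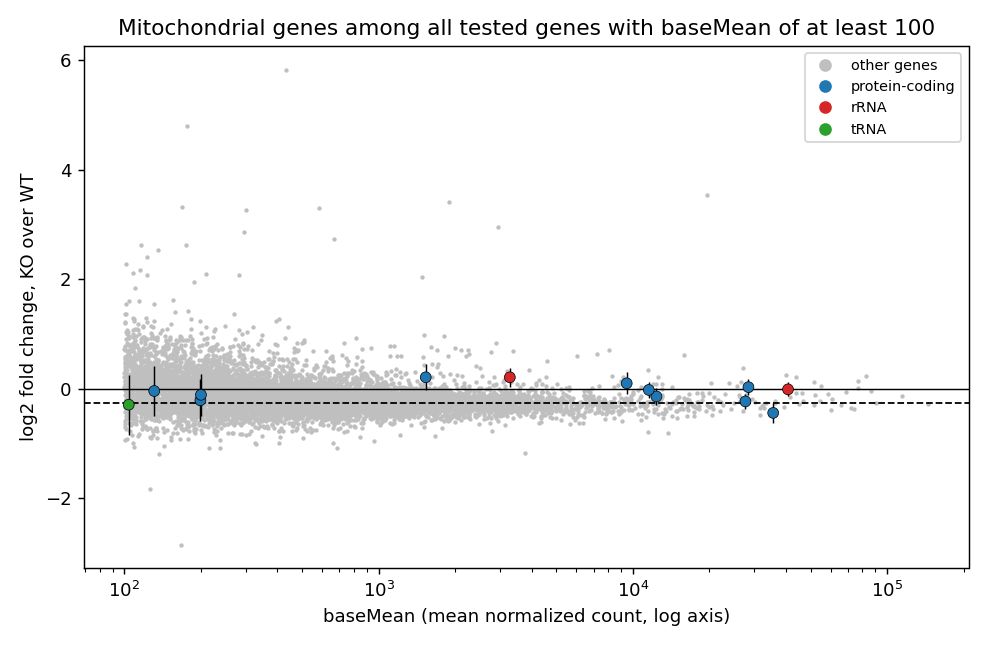
Each grey point is a tested gene with a baseMean of at least 100 (log axis), by its log2 fold change, KO over WT; coloured points are mitochondrially encoded genes with bars of 1 SE, and the dashed line is the median of genes whose baseMean is 1000 or more. The abundant mitochondrial genes lie between -0.44 and 0.21, around the 0 line, where most genes of that abundance lie below it.

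The nuclear genes that build and serve the mitochondrial genome were read from 13 lists, 264 genes with an adjusted p in all. By the authors' deposited table, none passed in either direction at an adjusted p under 0.05 (0 of 264), beside the same 0.552% of all genes. At an unadjusted p under 0.05, 12 (4.55%) were lower and 1 (0.379%) was higher, where 3.95% of all genes tested were lower and 9.62% higher. Their median log2 was -0.23, or 0.02 when centred, and 227 of the 264 were below 0. The centring used genes whose baseMean is 1000 or more, whereas the median baseMean of these 264 was 375. Tested genes with a baseMean between 100 and 1000 had a median log2 of -0.15.

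Nuclear-encoded subunits that assemble with the mitochondrial ones lay close to the median of abundant genes. Of 36 complex I subunits 35 were below 0, with a median of -0.25, beside 2 of 6 mitochondrially encoded complex I genes. The median baseMean of the 36 was 724, and 69.8% of tested genes between 100 and 1000 were below 0, with a median of -0.15. Among the mitochondrially encoded genes, mt-Nd4, mt-Nd3 and mt-Nd1 stood at -0.02, 0.00 and 0.03, so their signs carry little weight. All 11 complex IV, all 18 complex V and all 4 complex II subunits, the last a complex with no mitochondrially encoded member, were below 0 before centring, with medians of -0.26, -0.29 and -0.23, and after centring these medians were -0.01, -0.04 and 0.02. For complex III, 8 of 9 were below 0, with a median of -0.23. The smallest p in each list belonged to Ndufs4 (-0.57 ± 0.23 SE, adjusted p = 0.227), Ndufa4 (-0.50 ± 0.22, 0.278), Atp5b, the catalytic beta subunit (-0.38 ± 0.14, 0.177), Sdha (-0.23 ± 0.16, 0.540) and cytochrome c1, Cyc1 (-0.41 ± 0.20, 0.340), in the authors' deposited table. The difference between nuclear and mitochondrial subunits was not tested.

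Genes that copy and transcribe the mitochondrial genome did not pass either. Polg, the catalytic subunit of its DNA polymerase, stood at a log2 fold change of -0.51 ± 0.20 (SE; adjusted p = 0.184) by the authors' deposited table, or -0.26 when centred. The RNA polymerase Polrmt stood at -0.23 ± 0.36, its partners Tfam and Tfb2m at -0.11 ± 0.33 and 0.36 ± 0.42, and the elongation factor Tefm at 0.03 ± 0.76, with adjusted p of 0.758 to 0.994 in the authors' deposited table. Mterf1a, by name a mitochondrial transcription termination factor, had a baseMean of 17.8 and the smallest p of its list. For this gene the authors' deposited table gave -2.06 ± 1.24 (adjusted p = 0.469). Mterf1a has a close paralog, Mterf1b, with which reads may be shared.

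Enzymes of transcript processing gave like values. The RNase that cuts tRNA 3′ ends, Elac2, stood at a log2 of -0.21 ± 0.25 (SE), and the RNase P subunits Trmt10c and Hsd17b10, which serve the 5′ cut, stood at -0.10 ± 0.27 and -0.23 ± 0.26 in the authors' deposited table. The tRNA methyltransferase Nsun2 had the smallest p of the list at -0.44 ± 0.20 (adjusted p = 0.269) by the authors' deposited table. Lrpprc and Slirp, which together stabilise mitochondrial mRNAs, stood at -0.22 ± 0.24 and -0.12 ± 0.58, and the oligoribonuclease Rexo2 at -0.36 ± 0.20 (adjusted p = 0.411) by the authors' deposited table.

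In the translation lists, 68 of 76 mitochondrial ribosomal protein genes were below 0, with a median of -0.20 that was 0.05 when centred. Their median baseMean, 322, also lay below that of the genes used for centring. Mrps24 had the smallest p of these, at -0.53 ± 0.29 (adjusted p = 0.418), the RNA helicase Ddx28 stood at -0.79 ± 0.48 (0.477) and the elongation factor Tufm at -0.37 ± 0.22 (0.468) in the authors' deposited table. Among 14 regulators of mitochondrial biogenesis, 11 were below 0, with a median of -0.18 (0.08 when centred), and 1 gene in each direction had an unadjusted p under 0.05. The lower one was Myc, a growth-promoting transcription factor named after its value was seen, which the authors' deposited table put at -0.35 ± 0.16 (SE) and a baseMean of 3068. The higher one was Ppargc1a, a transcriptional coactivator, for which the authors' deposited table gave 2.20 ± 0.95 (adjusted p = 0.259) at a baseMean of 44.9.

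**Figure D5:**
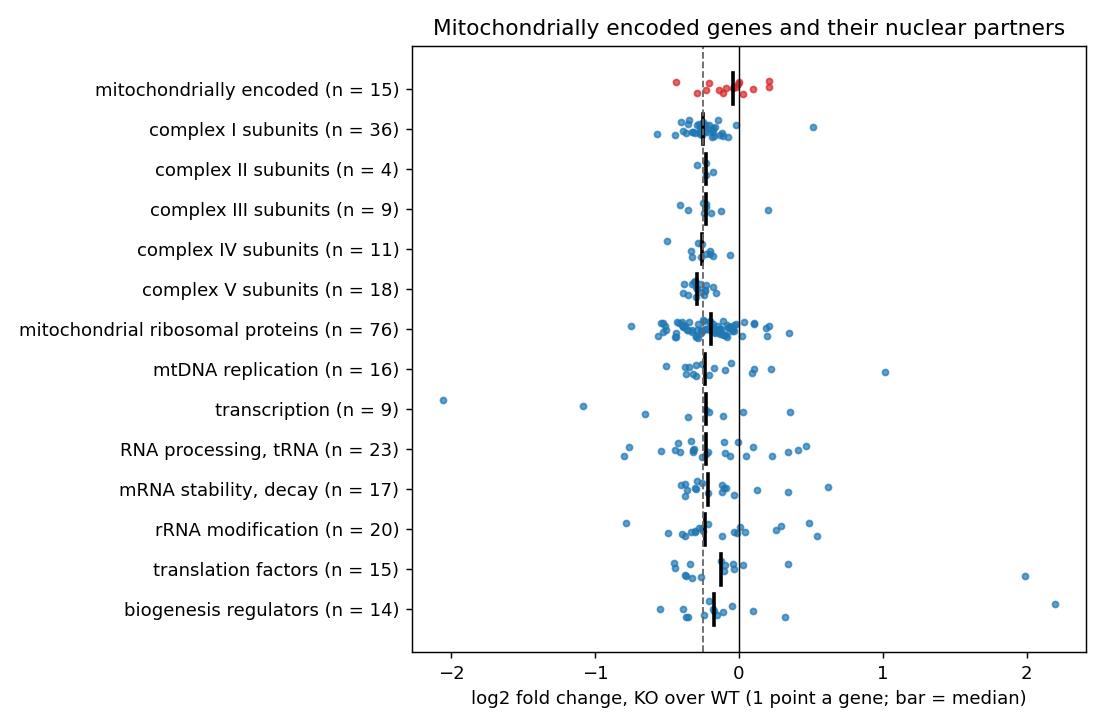
Each point is a gene by its deposited log2 fold change, KO over WT; the top row holds the 15 tested mitochondrially encoded genes, the other rows the nuclear lists, bars are medians and the dashed line is the median of genes whose baseMean is 1000 or more (-0.25). Medians of the nuclear lists lie between -0.29 and -0.12, and that of the mitochondrially encoded genes at -0.04.

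The deposited p-values were the authors' two-sided ones, adjusted by the Benjamini-Hochberg method over 19193 genes. Those on the centred scale, and adjusted p-values under other filters, were computed here. Nothing in the labels states that pools were independent in day or litter. The p-values therefore rest on these 4 samples and cannot be taken to cover variation between days or litters. In bulk RNA, fewer cells of a type and less RNA per cell cannot be told apart.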

How the data were processed

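RNA was measured in 2 WT and 2 KO samples of lung ILC2s. Per the labels' protocols, a SMART-Seq HT kit made cDNA, from which a TruePrep kit made libraries. The submitters' processing notes name HISAT2, Cufflinks and mm10. The step of each tool, the counter, its settings and the annotation were not given in the sources used here. Per the file headers, the authors deposited baseMean (a signal averaged from normalized counts), a log2 fold change, its SE (log2), a score that is the test statistic, and a p-value with an adjusted p-value, under the headings of a DESeq2 results table. The deposited statistic equals fold change over SE within 5.35e-08.

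Because WT comes first in the table's name, fold changes were multiplied by -1 to read as KO over WT. Under this reading Nrp1, the floxed gene, was lower in KO, and under the opposite one it would be higher. The table's 8 columns of values per library have headings that match no sample label and entered no result, although values of 2 genes in them were displayed on first inspection. The planned refits, replicate block and fits without a replicate were therefore not run, and depth per library was not analysed here. The baseMean minimum behind an adjusted p was 6.71.

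Exonic lengths, positions and sequences came from GENCODE M21 (38388 of 38697 identifiers matched). Nuclear copies were found with blastn 2.17.0 (word size 11), and windows by exact match. Centring subtracts the median log2 of genes whose baseMean is 1000 or more, with p-values from the normal distribution and Benjamini-Hochberg adjustment. Simulated data checked the code of the adjustment alone, with errors drawn from that same normal distribution, independently by gene and without centring. Whether the centred p-values hold for so few samples was not tested. Intervals are the 95% normal interval of the deposited SE. Alternatives were other filters, thresholds, centring, lengths and leaving out copied members.

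The members, lists and tests were chosen with earlier results of these data known. Named were all members, Nrp1, 12 fixed nuclear genes (Twnk was not analysed here) and, from each nuclear list, genes that passed or else that with the smallest p. Nuclear copies were named after their values were seen.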

Additional observations from a re-analysis of the deposited data

How the results depend on the processing

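No paired analysis was possible because the columns of values per library carry no label of a sample, so replicate block, leave-one-out and refits with other tools were not run. Of 15 mitochondrially encoded genes 0 passed as deposited, without a filter (16 genes), with a baseMean of at least 50 (14), among protein-coding and mitochondrial genes alone, at an adjusted p under 0.1 and when centred, and 1 passed at an unadjusted p under 0.05. Nuclear lists gave 0 calls in the same settings but the last, under which 1 nuclear gene was higher and 12 lower. Of 61 member comparisons with an alternative, 53 kept direction and call, 8 turned direction and 0 gained a call. Adjusted p over the 61 ranged from 0.136 to 0.999. Alternatives other than centring reuse the deposited fold changes and only readjust p, so they could not turn a direction. The count of 53 therefore does not show that directions are stable. The 8 turned when centred, by construction of the shift: mt-Rnr2 to 0.24, mt-Nd4 to 0.23, mt-Co2 to 0.21, mt-Atp8 to 0.16, mt-Co3 to 0.14, mt-Nd2 to 0.11, mt-Atp6 to 0.04 and mt-Cytb to 0.02. Centring moved the protein-coding median of -0.07 to 0.19 (0.18 with a baseMean of at least 10000, chosen after seeing the data) and the rRNA median of 0.10 to 0.36. Other summaries left the protein-coding median between -0.10 and -0.02. The protein-coding median of 2952 per kb was 5184 with a baseMean of at least 50. Split by windows shared with nuclear transcripts, chosen after seeing the data, it was 5184 with none, 11925 with some and 192 with at least 90%. The tRNA value of 1556 per kb was 483 with the longer lengths. The mitochondrial share of 1.32% was 1.36% among protein-coding and mitochondrial genes and 1.42% without the 10 most abundant nuclear genes.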

Other observations

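Other features of the mitochondrially encoded genes were read from their GENCODE M21 sequences. Of the 13 protein-coding genes, 9 start with ATG, and mt-Nd1, mt-Nd2, mt-Nd3 and mt-Nd5 start with GTG, ATA, ATT and ATC. The genes mt-Co3, mt-Nd4 and mt-Cytb end in a single T, 8 others end in TAA and 2 in TAG. G made up 28.1% of mt-Nd6, the protein-coding gene of the minus strand, and 5.88% to 16.1% of the 12 others. The 3 genes that end in T stood at a baseMean of 200, 11549 and 27715, so this ending did not go with 1 level.

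Among the alignments kept, nuclear copies outside chromosome 1 matched these protein-coding genes less closely, with a range of counts. Alignments to 1 other nuclear chromosome were left out before the best copies were picked. Gm13340 on chromosome 2 aligns to all 1545 bases of mt-Co1 with 37 mismatches and had a baseMean of 87.2, and Gm13339 beside it aligns to 510 bases of mt-Nd2 with 17 mismatches and had 7.78. Gm11408 on chromosome 4 aligns to all 519 bases of mt-Nd6 with 33 mismatches and had 0.506, at which no fold change can be read. The best copy of mt-Cytb among those kept, Gm11410, has 81 mismatches over 1142 bases. For mt-Rnr1 no alignment to an annotated nuclear transcript was among those kept.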
